A study of Mus musculus with 6 samples.

Results

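Complement transcripts were followed in whole thymus for 9 genes, C1qa, C1qb, C1qc, C2, C3, C4b, Cfb, C3ar1 and C5ar1, taken by gene symbol from a table of 24054 genes. All 9 were present and all 9 passed the filter on low counts. RNA came from 3 control libraries and 3 libraries from K5-rtTA:TetO-RANKL mice, in which doxycycline drives transgenic RANKL, a cytokine, through the keratin 5 promoter, active in basal epithelium and in medullary thymic epithelium. The controls were described as monogenic, without saying which transgene they carried, and both groups were given doxycycline in food and water. The labels disagree on the schedule, with a start at 9 weeks of age for 2 weeks in one text and at 8 weeks for 1 week in another, and they give neither strain nor sex. Each library held 18254870 to 25357060 counted reads. The labels do not say that the libraries came from separate animals, so the p-values reflect the spread among these 6 libraries, which may be technical.

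Complement is a cascade of plasma proteins that tags and lyses targets and calls in phagocytes. In the classical route C1q, built from the chains of C1qa, C1qb and C1qc, binds antibody or altered surfaces and sets off the proteases C1r and C1s. Of these, C1s cleaves C4 and C2 into a convertase. In the alternative route factor B, the product of Cfb, supplies the protease of the convertase. Both convertases cleave C3, the central component, and the small fragments C3a and C5a act on myeloid cells through the receptors encoded by C3ar1 and C5ar1. The liver makes most circulating components, whereas C1q is made mainly by macrophages and dendritic cells.

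Each of the 9 transcripts was higher in RANKL than in control thymus. Increases ran from 2.37-fold for C1qb to 38.6-fold for C5ar1. The receptors had the largest fold changes, Cfb came next at 7.96-fold, and C3 and the genes of the classical route rose 2.37-fold to 3.31-fold. All 9 passed an adjusted p under 0.05 in edgeR's quasi-likelihood test, against 33.8% of the 16096 tested genes that were called higher and 29.6% called lower. In all 9 every RANKL library lay above every control library, which held for 36.1% of tested genes. The median log2 fold change was 1.54 over the 9 genes and -0.02 over all tested genes. The transgene's own gene, Tnfsf11, stood at 6.01, 6.34 and 8.89 CPM (read counts scaled to library size with TMM factors) in control replicates 1 to 3 and at 3334, 4812 and 2390 CPM in RANKL replicates 1 to 3, which matches the labels. In bulk tissue, a change in the share of a cell type and a change in RNA per cell cannot be told apart. Double-positive thymocyte markers, the bulk of a normal thymus, fell in 8 of 8 and their summed level went from 8390 to 9526 CPM in control libraries to 193 to 833 CPM in RANKL libraries. The part of this in the complement results was not tested.

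**Figure D1:**
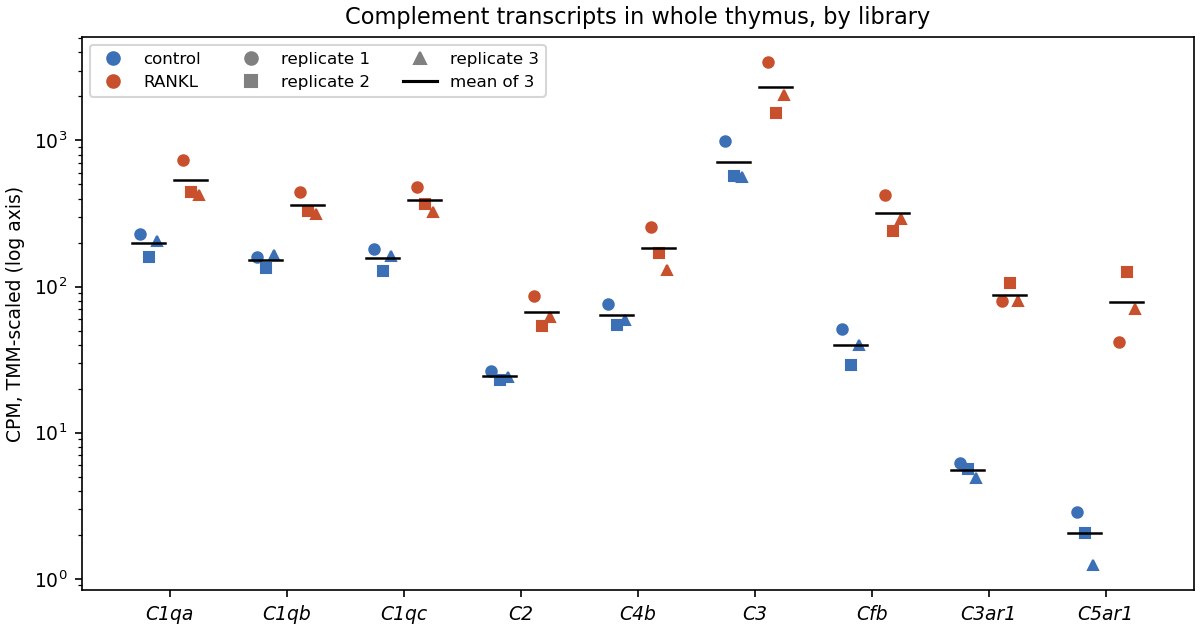
TMM-scaled CPM (log axis) of the 9 complement genes in each of the 6 libraries, with control in blue, RANKL in red, a marker shape for each replicate and a black line at the mean of 3. RANKL libraries lie above control libraries for every gene, with the widest gaps for C3ar1 and C5ar1.

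The genes lie in 5 places in GRCm38, the assembly of mm10, and all 9 are on the minus strand in GENCODE M21. The C1q genes form a cluster on chromosome 4, with C1qb at 136880129 to 136886187, C1qc at 136889804 to 136893065 and C1qa at 136895917 to 136898803. C4b (34728380 to 34743882), Cfb (34856374 to 34862518) and C2 (34862604 to 34898265) lie in the class III part of the major histocompatibility complex on chromosome 17, with 85 bases between Cfb and C2. C3 is elsewhere on chromosome 17, at 57203970 to 57228136. C3ar1 is on chromosome 6, at 122847138 to 122856161, and C5ar1 on chromosome 7, at 16246743 to 16259540.

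Promoter sequence in RefSeq's table for GRCm38.p6 matched 5 of the 9 genes, C1qb, C1qc, C3, C3ar1 and C5ar1. The 250 bases before the RefSeq start site are shown for C3, the transcript with the most reads, for C5ar1, the one that rose most, and for C1qc, the only one of the 5 with a match to a motif searched. They lie on the minus strand at chr17:57228137-57228386 for C3, chr7:16259339-16259588 for C5ar1 and chr4:136892915-136893164 for C1qc, and read 5′ to 3′. RefSeq and GENCODE place the starts differently for C5ar1 and C1qc, so 202 bases of the C5ar1 window and 151 of the C1qc window, at their 3′ ends, lie inside the GENCODE bounds given above, and none of the C3 window. Capitals mark motif matches.
C3: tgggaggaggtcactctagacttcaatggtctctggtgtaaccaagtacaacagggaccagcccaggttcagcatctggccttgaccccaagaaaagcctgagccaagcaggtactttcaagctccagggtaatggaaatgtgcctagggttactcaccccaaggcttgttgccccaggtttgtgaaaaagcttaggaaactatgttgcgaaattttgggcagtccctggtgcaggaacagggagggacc
C5ar1: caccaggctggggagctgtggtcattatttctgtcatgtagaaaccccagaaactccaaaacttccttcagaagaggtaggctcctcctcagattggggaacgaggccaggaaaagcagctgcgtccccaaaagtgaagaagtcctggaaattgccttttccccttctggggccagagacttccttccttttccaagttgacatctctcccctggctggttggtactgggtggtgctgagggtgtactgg
C1qc: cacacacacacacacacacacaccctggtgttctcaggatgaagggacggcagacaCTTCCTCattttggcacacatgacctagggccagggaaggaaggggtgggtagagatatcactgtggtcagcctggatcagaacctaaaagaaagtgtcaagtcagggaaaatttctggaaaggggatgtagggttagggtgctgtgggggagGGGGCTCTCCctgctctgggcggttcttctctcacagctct

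The motifs searched on both strands were the NF-kB consensus, held by 7.25% of 32851 promoters of this length, the STAT motif TTCNNNGAA (7.02%), the PU.1 core GAGGAAG (10.6%) and the interferon-stimulated response element GAAANNGAAA (2.98%). In C1qc the NF-kB consensus matched at bases -41 to -32 from the RefSeq start site, which lie inside the gene in GENCODE, as GGGGCTCTCC, and the PU.1 core matched on the other strand at bases -194 to -188, outside it. These motif letters do not overlap each other there. A match is a description of the letters. The other 4 promoters held none of these letters in this window.

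C1qa, C1qb and C1qc, whose chains assemble into 1 recognition protein, rose 2.70-fold, 2.37-fold and 2.47-fold. C1qa stood at 228, 160.5 and 204 CPM in control replicates 1 to 3 and at 733, 443 and 424 CPM in RANKL replicates 1 to 3. C1qb stood at 158, 134 and 164 CPM in control and at 442, 328 and 311 CPM in RANKL. C1qc stood at 181, 128 and 163 CPM in control and at 477, 367 and 324 CPM in RANKL. RANKL replicate 1 was the highest library for all 3 chains and the groups did not overlap, the lowest RANKL library being 1.79 to 1.90 times the highest control library. The log2 fold change was 1.43 ± 0.25 (SE, edgeR adjusted p = 0.000747) for C1qa, 1.25 ± 0.19 (adjusted p = 0.000339) for C1qb and 1.31 ± 0.20 (adjusted p = 0.000433) for C1qc.

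The balance between the C1q chains was compared as ratios of reads within a library, where scaling cancels. C1qa gave 1.29 ± 0.13 reads per C1qb read in control and 1.46 ± 0.17 in RANKL (SD, n = 3 per group; exact permutation test, two-sided, p = 0.3). It gave 1.25 ± 0.0031 reads per C1qc read in control and 1.35 ± 0.17 in RANKL (n = 3, exact permutation p = 0.4), and C1qb per C1qc went from 0.976 ± 0.089 to 0.927 ± 0.033 (n = 3, exact permutation p = 0.5). The ranges of the 2 groups overlapped in each of these ratios. With 3 libraries against 3 the smallest p this test can give is 0.1, and none of the 15 ratios computed passed the threshold after Benjamini-Hochberg adjustment, the smallest adjusted value being 0.167.

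C1q is a product of macrophages, and most macrophage markers rose as well. Of 15 macrophage markers 12 rose, with a median log2 fold change of 1.80. Timd4, a phosphatidylserine receptor of resident macrophages, fell, Marco and Apoe were not called, and no marker was at 0 in all libraries. Their summed level was 1936 to 2561 CPM in control and 4752 to 5859 CPM in RANKL libraries. Among RANKL libraries the markers did not share the same order. Csf1r, Mertk, Lyz2, Siglec1 and Apoe were highest in replicate 1 and lowest in replicate 3, like the C1q chains, and Ctss was highest in replicate 1. Cd68, Fcgr1, Cd14, Mrc1, Cd163 and Maf were highest in replicate 2, and Emr1, Timd4 and Marco in replicate 3. C1q reads per macrophage marker read were 0.245, 0.218 and 0.207 in control replicates 1 to 3 and 0.282, 0.196 and 0.223 in RANKL replicates 1 to 3, a log2 difference of 0.05 (n = 3 per group, exact permutation p = 0.8). Apoe and Lyz2, a lipoprotein and a lysozyme that other cells also make, held 76.8% to 80.7% of these marker reads in control and 39.5% to 53.2% in RANKL libraries. Without these 2, a change made after their share was seen, the ratio was 1.05 ± 0.02 in control and 0.437 ± 0.146 in RANKL (SD, n = 3), 2.50-fold lower, and the groups did not overlap (exact permutation p = 0.1). Among the other 13 markers, Csf1r, the receptor for macrophage colony-stimulating factor, had a log2 fold change of 1.80, Cd14, a lipopolysaccharide co-receptor, 6.35, and Ctss, cathepsin S, 2.75. Ctss was the highest of the 13 in every library, at 183, 162 and 234 CPM in control replicates 1 to 3. In RANKL replicates 1 to 3 it stood at 1450, 1067 and 1372 CPM. Cd14 went from 6.70, 6.39 and 5.54 CPM to 266, 850 and 407 CPM. Ctss and Cd14 together held most of the 13-marker sum in every RANKL library, and the ratio was not computed without them. Of 9 dendritic cell markers 4 rose and 2 fell, beside 33.8% called higher and 29.6% called lower over all tested genes. Their median log2 fold change was 0.29, and their summed level was 263 to 364 CPM in control and 430 to 556 CPM in RANKL libraries. Bst2, an interferon-induced gene high in plasmacytoid dendritic cells, rose by 1.75 ± 0.18, and Xcr1 and Clec9a, which mark cross-presenting dendritic cells, fell by 1.53 and 1.33 on the log2 scale. No dendritic cell marker was at 0 in all libraries. The part of macrophage and dendritic cell content in the C1q increase was not tested.

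**Figure D2:**
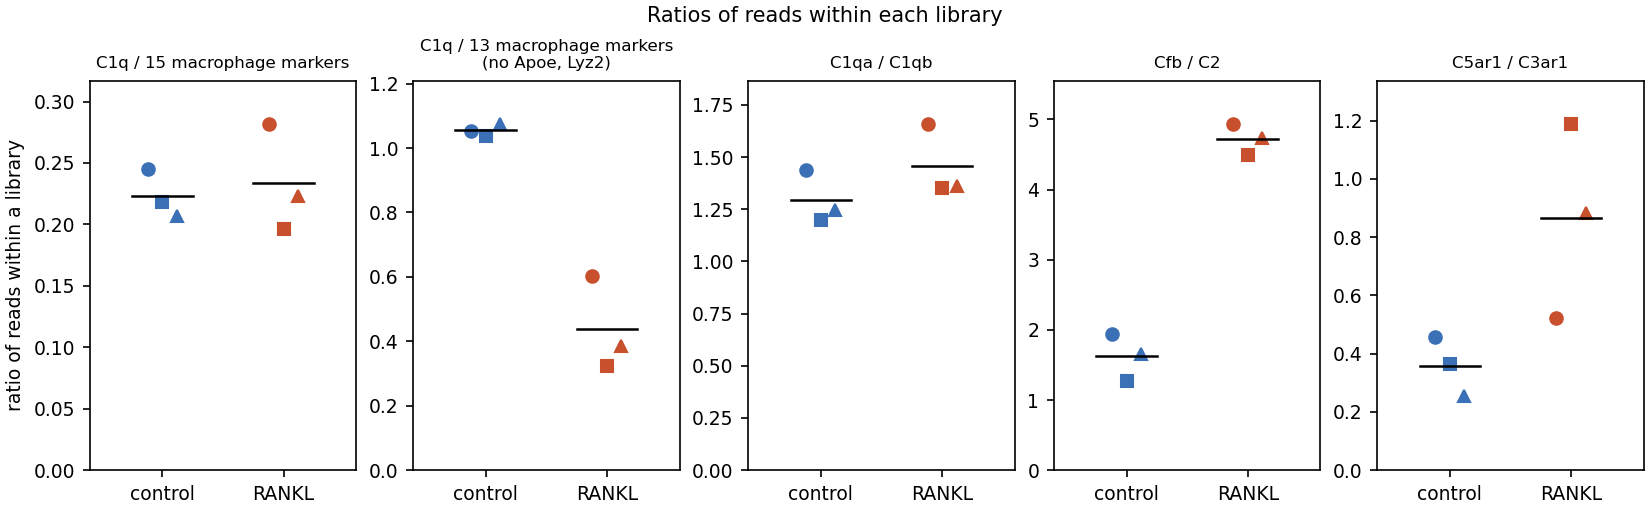
Ratios of reads within each of the 6 libraries (vertical axes, no unit, starting at 0), control in blue and RANKL in red, with a marker shape per replicate and a black line at the mean of 3. C1q per macrophage marker overlapped between groups with all 15 markers and separated with 13, C1qa per C1qb overlapped, and Cfb per C2 and C5ar1 per C3ar1 were higher in every RANKL library.

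C2 and C4b, which form the classical convertase once cleaved, rose 2.74-fold and 2.91-fold. C2 stood at 26.4, 22.8 and 24.0 CPM in control replicates 1 to 3 and at 85.9, 53.7 and 61.5 CPM in RANKL replicates 1 to 3, a log2 fold change of 1.46 ± 0.20 (edgeR adjusted p = 0.000212). C4b stood at 75.8, 54.8 and 59.5 CPM in control and at 254, 169 and 130.1 CPM in RANKL, a log2 fold change of 1.54 ± 0.25 (edgeR adjusted p = 0.000548). Neither gene's groups overlapped, and RANKL replicate 1 was the highest library for both. C4b reads per C2 read were 2.58 ± 0.25 in control and 2.74 ± 0.55 in RANKL (SD, n = 3, exact permutation p = 0.8). C4a, a near-identical copy of C4b, held 19 to 24 reads per control library and 55 to 88 per RANKL library. Of 50-base windows of the longest C4b transcript, 35.2% occur unchanged in C4a, so reads may be shared between the copies and the C4b and C4a values are uncertain. An exon of C2 overlaps one of Zbtb12 on the opposite strand by up to 161 bases, and the strand setting of the counting is not given in the sources used here. Zbtb12, a zinc finger gene, stood at 9.63 ± 0.57 CPM in control and 9.00 ± 1.37 CPM in RANKL (log2 fold change -0.10 ± 0.23, adjusted p = 0.729). C2 and Cfb also share exon sequence with Gm20547, an annotated gene on the same strand that spans both.

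Cfb, the neighbour and relative of C2, rose 7.96-fold. It stood at 51.2, 29.1 and 39.7 CPM in control replicates 1 to 3 and at 424, 241 and 291 CPM in RANKL replicates 1 to 3. Every RANKL library was at least 4.70 times the highest control library. The log2 fold change was 2.99 ± 0.28 (edgeR adjusted p = 2.27e-05). Cfb reads per C2 read went from 1.62 ± 0.33 to 4.72 ± 0.22, 2.95-fold higher, with no overlap between groups (SD, n = 3, exact permutation p = 0.1, the smallest possible; 0.167 adjusted over the 15 ratios). The transcripts of Cfb and C2 share no 50-base window.

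C3, whose cleavage is the step on which the routes converge, was the transcript with the most reads of the 9. It stood at 986, 568 and 566 CPM in control replicates 1 to 3 and at 3448, 1534 and 2037 CPM in RANKL replicates 1 to 3. Control replicate 1 and RANKL replicate 1 were the high library of their groups, and the lowest RANKL library was 1.55 times the highest control library, the narrowest gap among the 9. The log2 fold change was 1.73 ± 0.34 (edgeR adjusted p = 0.00156). It was 1.38 without RANKL replicate 1 and 2.02 without control replicate 1, both still called. C3 made up 46.2% to 57.5% of the reads of the 9 genes in control libraries and 45.6% to 57.6% in RANKL libraries. Cfb reads per C3 read were 0.058 ± 0.011 in control and 0.141 ± 0.017 in RANKL, 2.45-fold higher with no overlap (SD, n = 3, exact permutation p = 0.1), while C3 reads per C4b read overlapped between groups, at 10.96 ± 1.82 and 12.8 ± 3.37 (exact permutation p = 0.6).

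Most markers of other cells known to make C3 and Cfb were higher as well. Epithelial markers rose in 7 of 7, their summed level going from 1026 to 1245 CPM in control libraries to 4912 to 6074 CPM in RANKL libraries. Fibroblast markers rose in 8 of 9, from 472 to 577 CPM to 4121 to 7897 CPM. Over all tested genes 33.8% were called higher. Hepatocyte markers, of the main source of circulating complement, rose in 4 of 4 tested, and their summed level over 6 genes stayed low, at 0.722 to 2.58 CPM in control and 5.94 to 11.97 CPM in RANKL libraries. Endothelial markers rose in 3 of 5, from 180 to 216 CPM to 227 to 314 CPM, with Pecam1 and Tek not called. None of these markers was at 0 in all libraries. Among RANKL libraries the epithelial and fibroblast sums were highest in replicate 2, and C3 and Cfb were highest in replicate 1 and lowest in replicate 2. The markers within each list did not share the same order. Krt5, Krt14, Cldn4, Pdgfrb, Col1a1, Col1a2 and Col3a1 were highest in replicate 2. Krt8, Foxn1, Dcn, Lum, Dpt and Pi16 were highest in replicate 1 and lowest in replicate 2, like C3 and Cfb. Epcam and Pdgfra were highest in replicate 1, and Aire in replicate 3. The part of these cell types in the increases was not tested.

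The receptors for the released fragments had the largest increases. C3ar1, the C3a receptor, stood at 6.22, 5.67 and 4.87 CPM in control replicates 1 to 3 and at 79.5, 105.5 and 79.0 CPM in RANKL replicates 1 to 3. Its log2 fold change was 3.98 ± 0.20 (edgeR adjusted p = 3.64e-06), a 15.7-fold increase, with RANKL replicates within 1.34 times of each other. C5ar1, the C5a receptor, stood at 2.85, 2.06 and 1.24 CPM in control, from 54, 40 and 26 reads, and at 41.6, 125 and 69.8 CPM in RANKL. Its log2 fold change was 5.27 ± 0.47 (edgeR adjusted p = 1.79e-05), or 4.78 without RANKL replicate 2, its highest library. C5ar1 lay above 98.3% of tested genes in log2 fold change, C3ar1 above 95.4%, Cfb above 90.7%, and the other 6 genes above 74.1% to 80.0%. C5ar1 reads per C3ar1 read went from 0.359 ± 0.101 to 0.865 ± 0.333, 2.35-fold higher with no overlap between groups (SD, n = 3, exact permutation p = 0.1).

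Both receptors are carried by myeloid cells, and neutrophil markers rose as well. Of 10 neutrophil markers 10 rose, beside 33.8% of all tested genes called higher. Their median log2 fold change was 5.48. Their summed level went from 18.1 to 50.6 CPM in control libraries to 1941, 4507 and 2377 CPM in RANKL replicates 1 to 3. C5ar1 took the same order among the RANKL libraries, with replicate 2 highest and replicate 1 lowest, whereas C3ar1 was lowest in replicate 3. Of the markers, S100a9, Retnlg, Cxcr2 and Csf3r had the order of C5ar1. S100a8 and Mmp8 were highest in replicate 2 and lowest in replicate 3. Mpo, Camp and Ngp went the other way, highest in replicate 3 and lowest in replicate 2, and Elane was highest in replicate 3. C5ar1 reads per neutrophil marker read were 0.056 ± 0.012 in control and 0.026 ± 0.004 in RANKL, 2.14-fold lower with no overlap (SD, n = 3, exact permutation p = 0.1). S100a8 and S100a9 together held most of the neutrophil marker sum in every library. In control replicates 1 to 3 S100a8 stood at 12.8, 13.8 and 4.54 CPM and S100a9 at 16.7, 14.4 and 6.55 CPM. In RANKL replicates 1 to 3 they stood at 698, 1347 and 685 CPM and at 990, 2377 and 1164 CPM. The ratio thus rests mainly on these markers, and it was not computed without them. Against the 15 macrophage markers, C3ar1 reads were 6.49-fold and C5ar1 reads 15.2-fold higher per marker read in RANKL, again without overlap (n = 3, exact permutation p = 0.1 for each). With Apoe and Lyz2 left out of the marker sum, a change added after seeing the data, these were 2.51-fold and 5.89-fold higher (n = 3, exact permutation p = 0.1 for each). As for C1q, Ctss and Cd14 held most of this smaller sum in RANKL libraries. Mast cell and basophil markers rose in 7 of 7, with a median log2 fold change of 1.56 and a summed level of 28.0 to 34.6 CPM in control and 60.0 to 72.9 CPM in RANKL libraries. No marker of either list was at 0 in all libraries, and the part of these cells in the receptor increases was not tested.

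The libraries split the genes by where each was highest. RANKL replicate 1 was the highest RANKL library for C1qa, C1qb, C1qc, C2, C4b, C3 and Cfb, and RANKL replicate 2 for C3ar1 and C5ar1. Relative to the mean of control, C3 stood at log2 values of 2.29, 1.12 and 1.53 in RANKL replicates 1 to 3, and C5ar1 at 4.34, 5.93 and 5.09. Control replicate 1 was the highest control library for every gene except C1qb, which was highest in control replicate 3. The titles of control replicate 1 and RANKL replicate 1 carry consecutive numbers, and the labels do not say what the numbers stand for. The spread was widest for C5ar1, with an SD of 39.1% of the mean in control and 54.1% in RANKL, and narrowest in control for C2, at 7.49%.

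**Figure D3:**
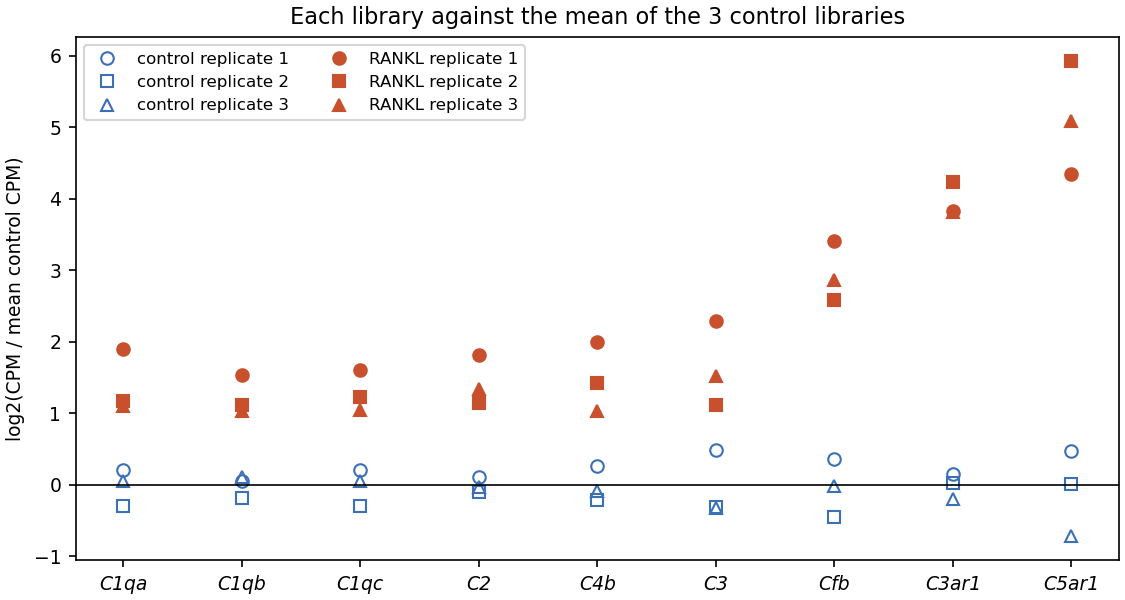
Log2 of CPM over the mean CPM of the 3 control libraries (vertical axis) for each of the 9 genes, with open blue symbols for control and filled red symbols for RANKL libraries. RANKL replicate 1 (circles) leads for the 7 components and RANKL replicate 2 (squares) for C3ar1 and C5ar1, which reach 4.24 and 5.93.

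Levels were compared between genes as CPM per kilobase of the longest coding transcript. In control thymus C1qa led at 189.8 ± 32.7 (SD, n = 3), followed by C1qb at 139.7 ± 14.6, C3 at 138 ± 47.2 and C1qc at 131 ± 22.2. The ranges of C1qb, C3 and C1qc over the 3 libraries overlapped, and C1qa overlapped only with C3 among these. Cfb at 14.5 ± 4.02 and C4b at 11.8 ± 2.05 overlapped each other, C2 lay below both at 9.24 ± 0.69, and C3ar1 and C5ar1 were lowest at 1.30 ± 0.16 and 0.807 ± 0.316. In RANKL thymus C1qa stood at 513 ± 166, C3 at 455 ± 193, C1qb at 331 ± 65.2 and C1qc at 323 ± 65.4, with C3 overlapping each of the others and C1qa above C1qb and C1qc in every library. Cfb stood alone at 116 ± 34.4, and C4b at 34.3 ± 11.8, C5ar1 at 31.1 ± 16.8, C2 at 25.4 ± 6.37 and C3ar1 at 20.4 ± 3.53 overlapped as the lowest group. The receptors thus lay below C2 in every control library, whereas in RANKL libraries the ranges of C2 and both receptors overlapped.

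Other genes of the complement system were taken by role, from a list made, like the others, with earlier results of these data known. Of the 48 that the table holds, 39 were tested, of which 23 were higher, 1 was lower and 15 were not called, beside 33.8% called higher and 29.6% called lower over all tested genes. The median log2 fold change was 1.10, against -0.02 over all tested genes.

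Of the classical and lectin genes 10 of 11 rose, beside 33.8% of all tested genes. C1ra and C1rb, copies of the C1r protease, had log2 fold changes of 1.31 ± 0.19 and 1.69 ± 0.37, C1rl, a relative, 1.86 ± 0.29, and the C1s proteases C1s1 and C1s2 0.72 ± 0.23 and 1.01 ± 0.29. Reads may be shared within these pairs of copies, so their values are uncertain. Without RANKL replicate 1 neither C1s gene was called, with C1s1 at 0.48 (edgeR adjusted p = 0.0698) and C1s2 at 0.81 (adjusted p = 0.0555). C1s1 was also lost without control replicate 2 (0.0704) or control replicate 3 (0.0709). C4a rose by 1.54 ± 0.34. Of the lectin route, Fcna, a ficolin of macrophages, rose from 15.5 ± 1.06 to 44.0 ± 11.4 CPM (log2 fold change 1.51 ± 0.22). Mbl2, a mannose-binding lectin, Masp1, a lectin-route protease, and Colec10, a collectin, rose from few reads, with 3 to 10, 5 to 15 and 0 to 6 per control library, to 25 to 40, 41 to 175 and 33 to 84 per RANKL library. Their log2 fold changes were 2.18 ± 0.53, 3.38 ± 0.69 and 4.47 ± 0.88. The fitted value of Colec10 was 8.65 without control replicate 1, which held all 6 of its control reads, so its size is uncertain.

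In the alternative route 1 gene rose and 1 fell. Cfp, which encodes properdin, a stabiliser of the convertase, stood at 81.2 ± 10.3 CPM in control and 173 ± 29.1 CPM in RANKL (log2 fold change 1.09 ± 0.18, edgeR adjusted p = 0.000551). Cfd, factor D or adipsin, the protease that cleaves factor B, stood at 207 ± 27.1 CPM in control and 120.5 ± 15.2 CPM in RANKL (log2 fold change -0.78 ± 0.17, adjusted p = 0.00282). It was the only gene of the list called lower, and it was not called in a test against a 1.5-fold change (adjusted p = 0.0946). Cfd is known as a product of fat cells. Of 4 adipocyte markers 1, the lipid droplet gene Plin1, fell and 3 were not called, beside 29.6% of all tested genes called lower. The summed level of the 4 was 139 to 227 CPM in control and 105 to 148 CPM in RANKL libraries. The part of fat cells in the Cfd decrease was not tested.

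Terminal components form the membrane attack complex. edgeR called 0 of the 4 tested, with 1 at an unadjusted p under 0.05. Over all tested genes it called 33.8% higher and 29.6% lower. DESeq2 and limma-voom also called 0 of the 4, each with 1 at an unadjusted p under 0.05. With no low-count filter 1 of 7 was called higher. Log2 fold changes were 1.10 ± 0.56 for Hc, the mouse C5 gene, 0.66 ± 0.29 for C6, 0.66 ± 0.68 for C7 and -0.72 ± 0.36 for C8g. Hc held 8 to 10 reads per control library and 7 to 35 per RANKL library, so C5, the source of the ligand of C5ar1, was at 0.475 ± 0.080 and 1.01 ± 0.64 CPM at the level of mRNA. C6 passed without control replicate 1 (0.96, adjusted p = 0.0166) or RANKL replicate 3 (0.84, adjusted p = 0.0436), and Hc without RANKL replicate 1 (1.51, adjusted p = 0.0303). The other 3 in the table, C8a, C8b and C9, had at most 13 reads in any library.

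Soluble regulators rose in 6 of 8 tested, beside 33.8% of all tested genes. Serping1, the C1 inhibitor, went from 110.1 ± 5.30 to 457 ± 141 CPM (log2 fold change 2.05 ± 0.23). Clu, clusterin, an inhibitor of the terminal complex and a chaperone, went from 148 ± 10.3 to 1456 ± 371 CPM (3.29 ± 0.23), with every RANKL library above every control library for both genes. Cfi, C4bp and Cpn1, which inactivate C3b, C4b or the anaphylatoxins, rose by 3.19 ± 0.41, 3.41 ± 0.53 and 3.89 ± 0.81, from at most 15, 5 and 4 reads in a control library. Vtn and Cpn2 were not called, at -0.76 and 0.51.

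Of 7 membrane regulators tested 2 were higher, a share near the 33.8% of all tested genes. Cd55, decay accelerating factor, rose by 0.98 ± 0.24 and Susd4 by 1.496 ± 0.40. Cr1l, the Crry regulator that guards mouse cells from C3 deposition, stood at 70.6 ± 8.39 CPM in control and 66.2 ± 1.49 CPM in RANKL, a log2 fold change of -0.09 ± 0.15 (edgeR adjusted p = 0.604). Cd59a, Cd59b, Csmd1 and Cd46 were at 0.26, -0.33, 0.81 and -1.51. Cd46, with 4 to 41 reads per library, was not called by edgeR or DESeq2 (adjusted p = 0.0547 and 0.0657) and was called lower by limma-voom (-1.66, adjusted p = 0.0392), with no low-count filter (-1.61, adjusted p = 0.0350), and without control replicate 1 (-1.79) or RANKL replicate 3 (-2.40). Csmd1 was called higher without RANKL replicate 2 (1.14).

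Of 7 other receptors 4 rose, beside 33.8% of all tested genes. Itgam and Itgax, the alpha chains of complement receptors 3 and 4 on myeloid cells, rose by 4.92 ± 0.42 and 3.07 ± 0.21. Itgb2, the beta chain that both share with other leukocyte integrins, thymocyte LFA-1 among them, stood at 338 ± 46.5 CPM in control and 306.5 ± 57.3 CPM in RANKL (log2 fold change -0.14 ± 0.19, edgeR adjusted p = 0.547). C5ar2, the second C5a receptor, rose from 0.478 ± 0.166 to 7.81 ± 4.17 CPM (4.03 ± 0.53), and like C5ar1 and Itgam it was highest in RANKL replicate 2 and lowest in RANKL replicate 1. Cr2, a receptor of B cells and follicular dendritic cells, rose by 1.72 ± 0.45, with 623 and 639 reads in RANKL replicates 1 and 3 and 207 in replicate 2, and its groups overlapped. Of 4 B cell markers 0 were called, with a median log2 fold change of -0.45. Their summed level was 75.6 to 87.7 CPM in control and 43.2 to 88.6 CPM in RANKL libraries. The part of B cells in the Cr2 increase was not tested. Vsig4, a C3b receptor of resident macrophages, and Cd93 were not called by edgeR, at 0.14 and 0.98. Cd93 was called higher by DESeq2 (adjusted p = 0.0271), with upper-quartile factors (adjusted p = 0.0413) and without RANKL replicate 3 (log2 fold change 1.36).

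**Figure D4:**
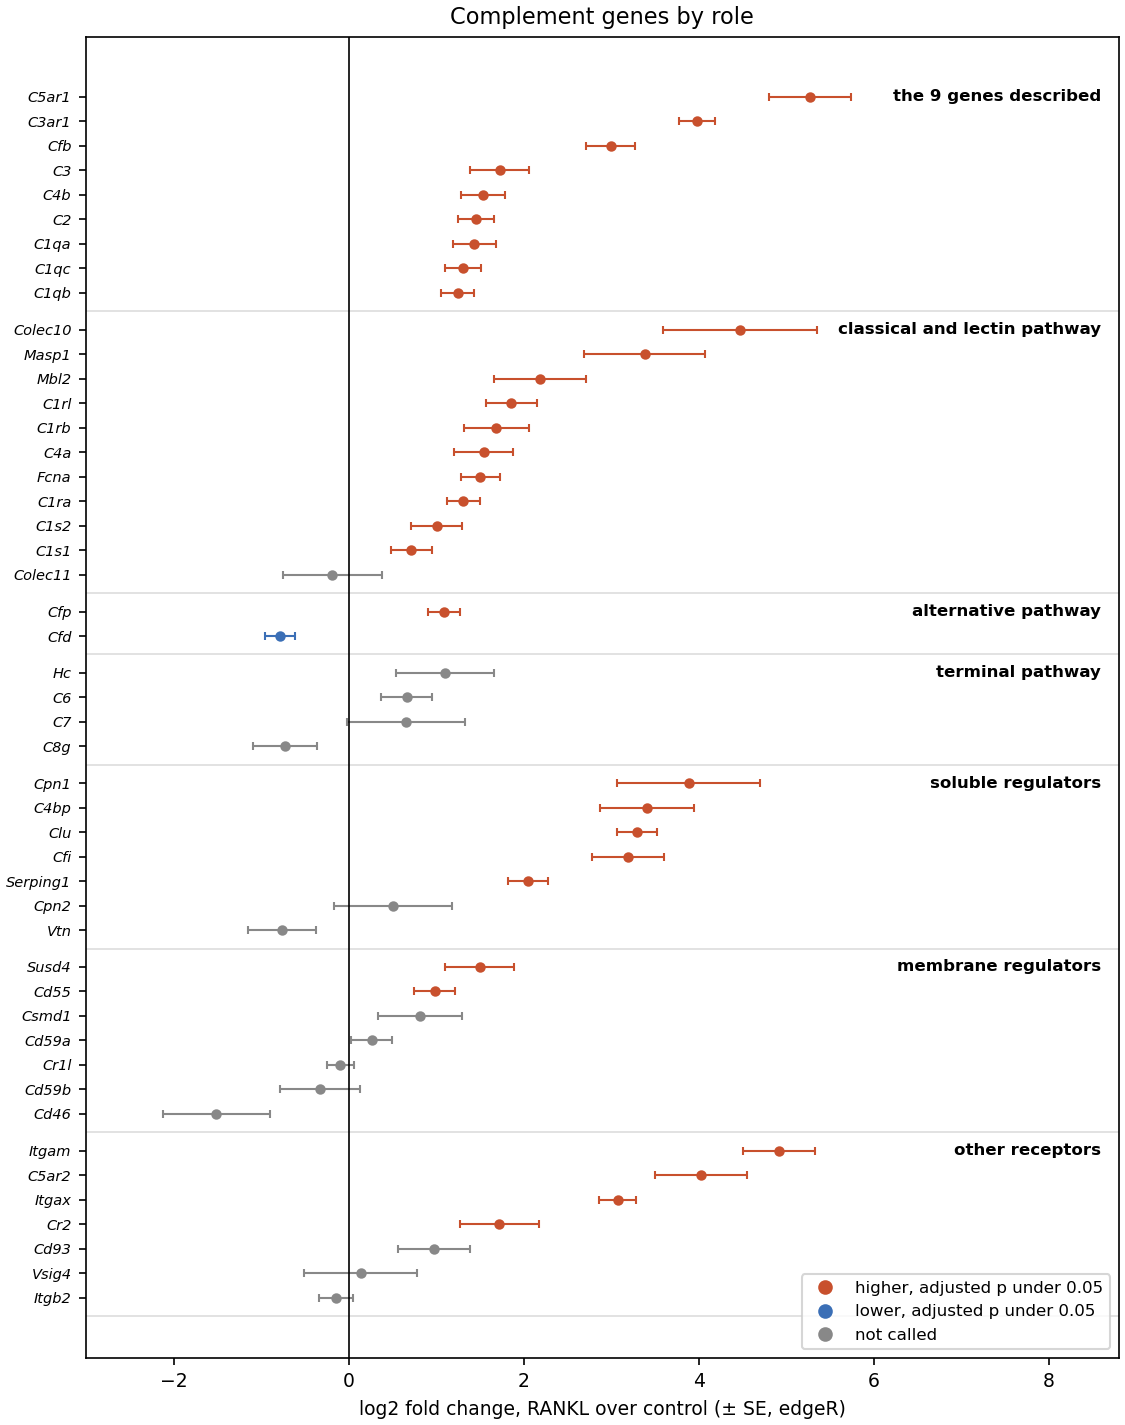
Log2 fold change, RANKL over control, with its SE (horizontal axis, edgeR) for the 9 genes described and 38 other complement genes tested, grouped by role, in red where called higher, blue where called lower and grey where not called. Cfd is the 1 gene called lower, and the 4 terminal genes tested are grey.

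Genes with the most similar profile were sought among 12840 tested genes whose mean log2 CPM was 1 or more. Likeness was the root mean square difference in log2 CPM over the 6 libraries after centring each gene, so it rests on 2 groups of 3 libraries and mostly on the size of the fold change. C1qa was nearest to Sardh (0.074), C1qc (0.113) and C4b (0.125), C1qb to Mxra8 (0.053), Fam210b (0.079) and Cyb5r3 (0.087), and C1qc to Cybrd1 (0.089), C1qb (0.090) and Mxra8 (0.094). C2 was nearest to C1ra (0.075), the protease of its own route, then to Tor3a (0.077) and Atp1b1 (0.077). C4b was nearest to Mmp2 (0.114), a matrix metalloproteinase, Bicc1 (0.120) and C1qa (0.125). C3 was nearest to Cdh2 (0.063), N-cadherin, Cables1 (0.103) and Fut4 (0.119), and Cfb to Zbtb7c (0.113), Prr15 (0.137) and Nrep (0.145). C3ar1 was nearest to Crb3 (0.087), Pak6 (0.102) and C1qtnf6 (0.130). C5ar1 was nearest to Lypd3 (0.200), Itgam (0.248) and Clec5a (0.258), the latter 2 known from myeloid cells.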

How the data were processed

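RNA from thymus was sequenced in 3 control and 3 RANKL libraries. Per the labels' protocols, the libraries were of stranded mRNA type, from 250 ng of TRIzol-extracted and column-purified RNA. The authors deposited raw counts, whole reads per gene and library. STAR and mm10 are named, per the submitters' processing notes. For the STAR version, the counting tool, the strand setting and the annotation, the state is: not given in the sources used here. Library totals ran from 18254870 to 25357060 reads, so 3 reads, the floor of counting, were 0.122 to 0.161 CPM. Floors cover counting error only. Libraries of a group differed by more than sampling noise (chi-square per degree of freedom 31.7 to 67.9), so each counted as 1 replicate.

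Genes kept by filterByExpr (16096) were scaled by TMM and tested with the robust quasi-likelihood test of edgeR 4.0.16 (R 4.3.3) without covariates, with Benjamini-Hochberg adjustment over all genes tested at a threshold of 0.05. The code was tested on simulated counts. Standard errors were derived from the F statistic. Ratios within libraries were tested with exact permutation tests (scipy 1.17.1), and all but C1q per macrophage marker were added after the counts of the 9 genes were seen. The 9 genes and all lists were chosen with earlier results of these data known. Of 51 listed complement entries 48 were distinct genes in the table, after matching older symbols such as Daf2 for Cd55b and Emr1 for Adgre1 through RefSeq. Named genes were the 9, Tnfsf11, called list genes, the 3 nearest profiles of each of the 9, and markers. Zbtb12, list genes not called and some markers were named after their values were seen. Alternatives were other scaling (RLE, upper quartile, library totals), no low-count filter or 1 CPM in 3 libraries, non-robust fitting, title-number range as a block, DESeq2 1.42.0, limma-voom (limma 3.58.1), removal of the 45S precursor Rn45s, stricter thresholds and each library left out. Transcript lengths, exons and positions came from GENCODE M21, promoters from RefSeq, both of GRCm38. Figures were drawn with matplotlib 3.10.9. Of the listed complement genes, 1 that was tested is included in the counts and is not reported here by name or value, and it is not drawn.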

Additional observations from a re-analysis of the deposited data

How the results depend on the processing

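Each of the 9 genes kept its direction and its call under all 18 alternatives, 162 of 162 values, with a largest adjusted p of 0.0121 for C3 without control replicate 3. Over the 12 alternatives that keep all libraries, log2 fold changes ran from 1.15 to 1.35 for C1qb and from 5.09 to 5.36 for C5ar1. Upper-quartile factors moved the median of all genes from -0.02 to 0.08, and C6 and Cd93 were then called. Testing against 1.5-fold left 2654 genes lower in RANKL. The count of listed complement genes lower was 2 with no low-count filter, 2 with limma-voom, Cd46 joining Cfd in both, and 0 with edgeR's test against a 1.5-fold change, where 1 had an unadjusted p under 0.05, and it ran from 1 to 2 with a library left out. The log2 difference in C1q reads per macrophage marker read ran from -0.093 without RANKL replicate 1 to 0.17 without RANKL replicate 2, and was -1.32 without Apoe and Lyz2, which were left out after seeing the data. With 3 libraries a group, no ratio could pass 0.05. The title-number block leaves control replicate 2 alone in its range, where it carries no information on the groups, and under it Csmd1 was called higher (1.17). Titles of control replicate 1 and RANKL replicate 1 are consecutive, and no label states that title numbers pair libraries. Genes with under about 10 reads a library, such as Colec10 and Cpn1 in control, have sizes limited by depth.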
